A study of Mus musculus with 18 samples.

Results

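Fibroblasts that carry a Cas9 transgene and 2 normal Lmna alleles (+/+;Cas9/+) were compared after transduction with a guide RNA against Lmna, gLmna-1 or gLmna-2, or with the mock guide gMock, which matches no site in the genome. The members are the libraries that the titles give to this genotype: 2 with gLmna-1, 2 with gLmna-2 and 2 with gMock, so 6 of the 18 libraries analysed. Each treatment was made on cells of the same 2 mice, called mouse 1 and mouse 2 here, and every guide library was set against the gMock library of its own mouse. The 12 other libraries, which serve as a frame, came from 2 mice each of the genotypes Pro/Pro;Cas9/+ and Pro/+; +/+. Pro is the progeria allele of Lmna, and Pro/+; +/+ cells have no Cas9. The titles name 1 of the Pro/+; +/+ mice by 2 joined numbers. It may be 1 animal or a pool, and it is counted as 1 mouse here. All cells were primary fibroblasts from the tail tips of mice 2 months of age at passage 5, transduced with lentivirus in 4 µg/ml polybrene. Over 80% of the cells in each culture were positive for mCherry, the marker on the vector, and cells were neither selected nor sorted. The gMock cells of the +/+;Cas9/+ mice therefore carry the same Cas9, the same vector and the same marker as the guide-treated cells. These are uncloned cultures in which cells without the vector remain.

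Lmna encodes lamin A and lamin C, intermediate filament proteins under the inner nuclear membrane that are made from the same transcript by alternative 3′ end use. The genes that moved in this comparison were mostly interferon-stimulated genes. Type I interferons and cytosolic nucleic acid sensors such as RIG-I and MDA5 feed into this program: interferon binds a receptor with the kinases Jak1 and Tyk2, which activate STAT factors. A complex with Irf9 then binds the interferon-stimulated response element, and the genes under it encode antiviral effectors, ubiquitin-like Isg15 with its conjugation enzymes, antigen presentation proteins and the sensors themselves.

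Values are FPKM, fragments or reads per length of transcript and depth of library. Differences are on the log2(FPKM + 1) scale, as guide minus gMock, which understates the change of low genes. Standard errors and adjusted p-values came from limma over 12599 tested genes with the mouse as a block, and 0.05 was the threshold. The libraries of these 6 cultures had a depth of 22424410 to 33015443 reads, counted from the smallest steps in their values, within the range of 22424410 to 42622053 for all 18. The 15 genes of the fibroblast marker list summed to between 12034 and 14337 FPKM, most of it from Vim (4677 to 5091 FPKM) and S100a4 (3932 to 4683 FPKM). Fap was at 0.407 to 1.19 FPKM, and Tcf21 was listed at 0 in all 6 cultures. All 10 endothelial markers stayed under 1 FPKM in these cultures. Macrophage markers were present, as described with the other gene groups.

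The difference in total Lmna RNA did not pass the test, and the part of the RNA that ends in lamin A was lower relative to exons 4 to 9 in all 4 guide libraries. For the Lmna transcript with the highest mean, gMock libraries held 381 FPKM in mouse 1 and 317 FPKM in mouse 2, gLmna-1 libraries 299 and 291 FPKM, and gLmna-2 libraries 333 and 272 FPKM. Each guide library was below the gMock library of its own mouse, and the groups overlapped only across mice. The mean of exons 4 to 9 was likewise lower than in gMock of the same mouse, by between −21.1% and −10.3%. For the transcript the log2 difference was −0.22 (SE 0.15, adjusted p = 0.762 by limma).

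The gene is on chromosome 3 of mm10, minus strand, and its parts were read separately. Both proteins use exons 4 to 9. Exon 11 (88482346 to 88482612) belongs to lamin A, and so does the last part of exon 12, beyond the coding sequence (88481148 to 88482073). The lamin C end is 88483205 to 88483296. The FPKM of exon 12 relative to the mean of exons 4 to 9 was 0.387 in gMock, 0.279 with gLmna-1 and 0.286 with gLmna-2 in mouse 1. In mouse 2 the same ratios were 0.414, 0.273 and 0.329. Both gMock libraries lay above all 4 guide libraries, and the ratio was lower than in the gMock culture of the same mouse by 20.5% to 34.1%.

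The ratio for exon 11 was also lower in all 4 guide libraries, with 0.397 in gMock, 0.284 with gLmna-1 and 0.256 with gLmna-2 in mouse 1. It was 0.416, 0.268 and 0.293 in mouse 2. These were 28.4% to 35.5% below gMock. The ratio of the lamin C end was higher than in gMock by 31.7% with gLmna-1 and 27.8% with gLmna-2 in mouse 1, but by 6.0% and 6.3% in mouse 2. It was also higher than in gMock in cells without Cas9, by 5.59% to 16.8%, a range that holds both mouse 2 values, and in Pro/Pro;Cas9/+ cells by 5.38% to 92.3%. In cells without Cas9 the exon 12 ratio differed from gMock by between −12.6% and 6.50%, and in Pro/Pro;Cas9/+ cells by −48.9% to −32.1%. No test was made of these ratios. Between 546 and 1241 reads lay behind each exon 11 value and 357 to 574 reads behind each lamin C value.

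**Figure D1:**
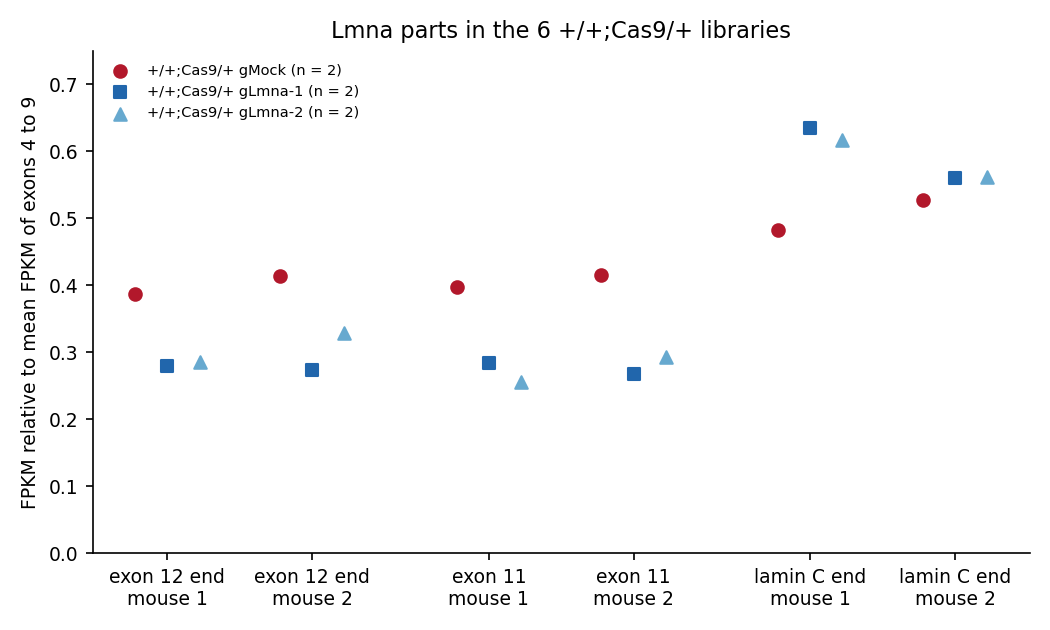
FPKM of 3 parts of Lmna divided by the mean FPKM of exons 4 to 9 (vertical axis, no unit), for each of the 6 +/+;Cas9/+ libraries, by mouse. Each point is 1 library. The exon 12 end and exon 11 of lamin A are lower in all 4 guide libraries than in the gMock libraries (0.387 and 0.414 for exon 12), while the lamin C end is higher than in gMock of the same mouse by 6.0% to 31.7%.

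Across all genes, both guides combined gave 104 genes that fell against gMock and 3 that rose (limma, adjusted p under 0.05), which is 0.825% and 0.0238% of the genes tested. All 104 lay higher in both gMock libraries than in all 4 guide libraries, an arrangement that 10.8% of all tested genes showed, and the reverse arrangement was seen in 5.5%. The median fall among the 104 was −1.11 on the log2 scale, with 61 genes below −1 and 16 below −2, beside a median of −0.02 for all tested genes. A further measure concerns the rest of the series. For 96 of the 104, both +/+;Cas9/+ gMock libraries lay above all 16 other libraries, including the gMock libraries of the other genotypes, as 2.17% of all tested genes did. The 104 were called from these same libraries, and 4 of the 16 are their guide libraries. Both arrangements therefore follow in part from the call and are descriptions, not separate support. Of the 1363 tested genes with both gMock libraries above all 4 guide libraries, 274 had them above all 16.

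The high values were thus those of 2 gMock cultures. The guide-treated +/+;Cas9/+ cultures had levels near those of the other genotypes, whether treated with guides or with gMock. The interferon response list makes this plain: its 36 genes summed to 2800 FPKM in the gMock library of mouse 1 and 2598 in that of mouse 2. The 4 guide libraries summed to between 788 and 1331 FPKM. The 6 Pro/+; +/+ libraries summed to 666 to 900 FPKM and the 6 Pro/Pro;Cas9/+ libraries to 783 to 1326 FPKM. B2m alone held 1526 and 1377 FPKM of the gMock sums and 564 to 1014 FPKM with guides. The mean log2(FPKM + 1) of the 36 genes weighs them equally. It was 4.49 and 4.35 in gMock and 2.41 to 2.86 with guides. In Pro/+; +/+ libraries it was 2.04 to 2.75, and in Pro/Pro;Cas9/+ libraries 2.00 to 3.01. In these bulk cultures, fewer cells with the program and less RNA of it per cell cannot be told apart. Each p-value rests on 2 mice, and the calls need both gMock libraries. Without that of mouse 1, 0 genes passed (smallest adjusted p = 0.0562 by limma, 1129 genes at unadjusted p under 0.05), and without that of mouse 2, 0 passed (0.0544, 483 genes). The count was 67 without the gLmna-1 library of mouse 1 and 56 without the gLmna-2 library of mouse 2, and 67 with the 6 libraries of this genotype alone.

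The 10 genes with the largest falls under the naming rule were all known interferon-stimulated genes. Isg15, the ubiquitin-like antiviral protein, was at 189 FPKM and 201 FPKM in gMock of mouse 1 and mouse 2. It was at 12.9 and 26.3 FPKM with gLmna-1 and at 25.5 and 12.4 FPKM with gLmna-2. All 4 guide libraries lay far below both gMock libraries and inside the range of the Pro/Pro;Cas9/+ libraries, 6.37 to 38.8 FPKM. The log2 difference was −3.35 (SE 0.38, adjusted p = 0.00471 by limma), and the mean in gMock was 10.1 times the mean with guides. Isg15 is at 156199424 to 156200818 on chromosome 4.

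Ifit1, which binds viral RNA with an altered cap, was at 99.5 and 91.5 FPKM in gMock. With gLmna-1 it was at 5.6 and 20.6 FPKM and with gLmna-2 at 11.3 and 6.20 FPKM. The log2 difference was −3.18 (SE 0.50, adjusted p = 0.0192 by limma). Usp18, the protease that removes Isg15 and dampens the receptor, was at 33.7 and 31.4 FPKM in gMock. It fell to 1.64 and 5.50 FPKM with gLmna-1 and to 4.07 and 2.64 FPKM with gLmna-2 (log2 −2.99, SE 0.37, adjusted p = 0.00572). The groups did not overlap for either gene.

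Cxcl10, a chemokine for T cells, was at 13 and 8.31 FPKM in gMock and between 0.544 and 1.51 FPKM in the 4 guide libraries (log2 −2.61, SE 0.30, adjusted p = 0.00471). Bst2 tethers budding virus to the cell surface. It was at 234 and 239 FPKM in gMock, 32.4 and 45.6 FPKM with gLmna-1, and 63.4 and 51.2 FPKM with gLmna-2 (log2 −2.31, SE 0.21, adjusted p = 0.00313). Its guide libraries lay near the 22.7 to 47 FPKM of Pro/+; +/+ cells.

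The other named genes with large falls were Ifi44, Oasl2, Ifit3, Ifit3b and Iigp1, an immunity-related GTPase that attacks the vacuoles of intracellular parasites. Their log2 differences were −2.89, −2.76, −2.69, −2.73 and −2.42 in that order, with standard errors from 0.22 to 0.38. Ifit3 and Ifit3b are near-identical copies, so reads could have been split between them, and their values of 121 and 95.1 FPKM and of 21.2 and 15.6 FPKM in gMock are uncertain.

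**Figure D2:**
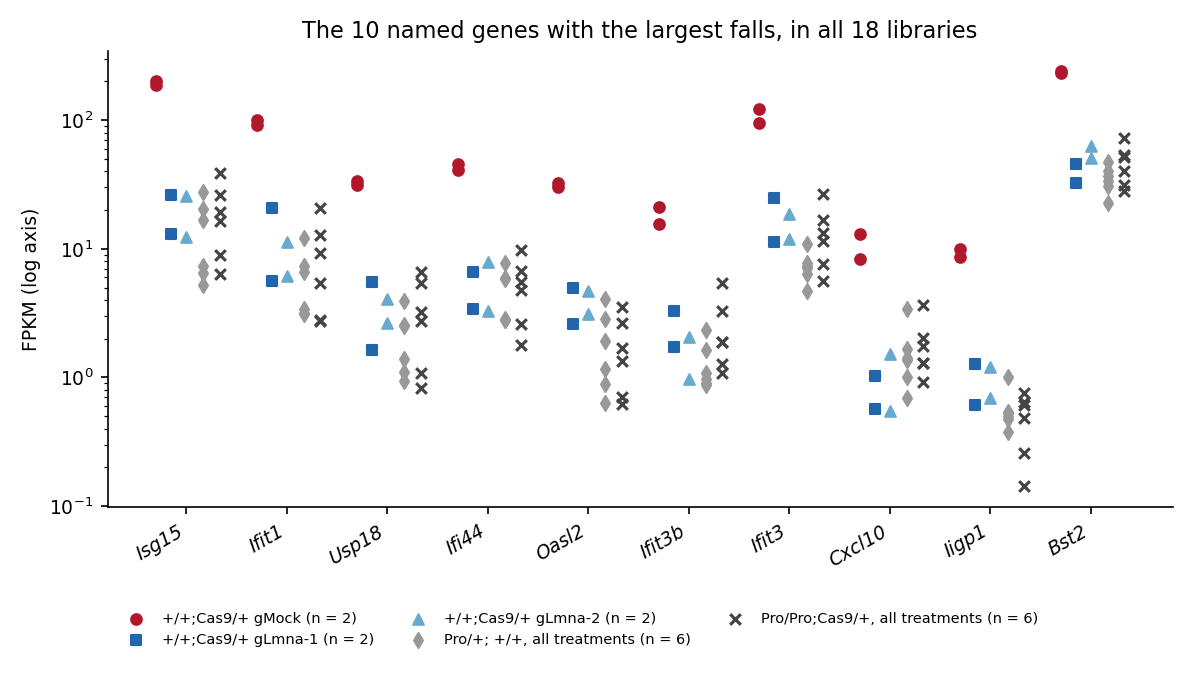
FPKM on a log axis of the 10 named genes with the largest falls, in all 18 libraries. Each symbol is 1 library. The 2 gMock libraries of +/+;Cas9/+ cells stand above all others for each gene (Isg15, 189 and 201 FPKM), and the 4 guide libraries lie among or near the 12 libraries of the other genotypes.

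Promoters of these genes were searched because the factors that end the interferon pathway bind DNA there. The pattern was GAAANNGAAA, the core of the interferon-stimulated response element, on either strand, where it reads TTTCNNTTTC, and copies may overlap. In the RefSeq table (GRCm38.p6), 83 of the 104 genes that fell had a promoter, and 33 of these, 39.8%, held the pattern in the 250 bases before the start. The share was 3.19% of the 9833 tested genes with a promoter and 3.46% of all 27025 genes in the table. A match is a description of the letters, not a bound site. The stretches below are those of the 6 named genes with the largest falls that hold the pattern, 5′ to 3′ on the strand of the gene, and capitals mark the pattern.
Isg15: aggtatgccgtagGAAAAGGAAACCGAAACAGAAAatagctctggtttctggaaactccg
Ifit1: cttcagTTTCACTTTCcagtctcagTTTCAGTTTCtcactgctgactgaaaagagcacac
Ifit3b: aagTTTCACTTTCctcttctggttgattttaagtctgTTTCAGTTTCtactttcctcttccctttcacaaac
Ifit3: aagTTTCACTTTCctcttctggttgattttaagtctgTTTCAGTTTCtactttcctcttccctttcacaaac
Cxcl10: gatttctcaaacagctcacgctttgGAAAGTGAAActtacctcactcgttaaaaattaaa
Bst2: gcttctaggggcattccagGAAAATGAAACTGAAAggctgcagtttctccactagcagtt

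The Isg15 stretch is chr4:156200850-156200909 on the minus strand, and its 3 copies of the pattern run into each other. The Ifit1 stretch is chr19:34640779-34640838 on the plus strand with 2 separate copies. Those of Ifit3b (chr19:34607766-34607837, plus) and Ifit3 (chr19:34583370-34583441, plus) have the same letters throughout. The Cxcl10 stretch is chr5:92349068-92349127 on the minus strand, and the Bst2 stretch is chr8:71537562-71537621 on the minus strand. The nearest copy ends 56 bases before the start in Isg15 and 203 bases before it in Cxcl10. Ifi44 and Oasl2 fell by similar amounts and had no match in this window.

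All 21 interferon genes examined were under 1 FPKM in the 6 libraries and none could be tested. Ifnb1 was at 0.0579 FPKM in gMock of mouse 1 and listed at 0 in the other 5 libraries, and it reached 0.0829 FPKM among all 18. Ifna4 and Ifna13 were at 0.0480 and 0.0377 FPKM in gMock of mouse 2 only. Ifng was listed at 0 in both gMock libraries, at 0.0283 FPKM with gLmna-1 in mouse 1 and at 0.0709 FPKM with gLmna-2 in mouse 2. Ifnz was at 0.0609 and 0.126 FPKM in gMock and 0.0709 to 0.169 FPKM with guides. Of 8 tested receptor chains and kinases, 0 passed in either direction, which at 0.825% of all tested genes lower is near the background. Ifnar1, a chain of the type I receptor, was at 9.30 and 8.94 FPKM in gMock and 9.15 to 10.3 FPKM with guides, so that its groups overlapped. Ifnar2, its partner chain, was at 44.7 and 40.8 FPKM in gMock and 32.5 to 39.7 FPKM with guides (log2 −0.20, SE 0.06, adjusted p = 0.438).

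Among STAT and IRF factors, 4 of 13 tested fell, beside 0.825% of all tested genes. The same share is the background for each list count below. These lists share genes, so 1 call can count in several of them. Stat2, Irf7 and Irf9, for example, are also in the interferon response list. Irf7, the factor that amplifies interferon production, was at 34.2 and 30.8 FPKM in gMock and 4.22 to 8.44 FPKM with guides (log2 −2.31, SE 0.29, adjusted p = 0.00619). Stat2 and Irf9 had log2 differences of −1.18 and −0.84. For these 3 genes both gMock libraries lay above all 4 guide libraries. Stat3, Stat5a, Stat5b, Stat6, Irf2 and Irf3 had differences between −0.05 and 0.22, and Irf1 of −0.22 (adjusted p = 0.706).

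Of the 35 tested genes of the interferon response list, 34 fell, and the median difference was −1.52. The median of the same list was 0.07 in Pro/+; +/+ cells and −0.35 in Pro/Pro;Cas9/+ cells. In Pro/Pro;Cas9/+ cells 31 members were negative and 4 positive, beside 51.9% negative over all tested genes. In Pro/+; +/+ cells 8 were negative and 27 positive, beside 65.5% negative. In the mean of both guides, a smaller difference of the same sign was thus seen in Pro/Pro;Cas9/+ cells, but not in every library. In 1 Pro/Pro;Cas9/+ mouse the mean log2(FPKM + 1) of the list was 2.49 in gMock, 2.00 with gLmna-1 and 2.84 with gLmna-2. In the other mouse the values were 3.01, 2.16 and 2.49. The exception, Ifi27l2a, was at 3.99 and 5.51 FPKM in gMock and 1.54 to 2.69 FPKM with guides (log2 −0.91, SE 0.32, adjusted p = 0.52). Mx1 was not tested.

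Isg15, the enzymes that attach it and Usp18, which removes it, moved as a group, with 5 of 6 tested members lower. Uba7, the activating enzyme, was at 8.60 and 7.45 FPKM in gMock and 3.53 to 3.75 FPKM with guides. Ube2l6, the conjugating enzyme, was at 18.2 FPKM in both gMock libraries and 5.75 to 8.31 FPKM with guides. Herc6, the mouse ligase, was at 6.68 and 7.01 FPKM in gMock, 2.03 and 2.66 FPKM with gLmna-1, and 2.19 FPKM in both gLmna-2 libraries. Herc6 had the smallest adjusted p of all genes (log2 −1.27, SE 0.10, adjusted p = 0.00248 by limma), and its guide libraries were near the 1.79 to 2.43 FPKM of Pro/+; +/+ cells. Trim25 did not pass (log2 −0.57, adjusted p = 0.224).

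Of 12 tested IFIT and OAS genes, 9 fell. The OAS enzymes are synthetases that respond to double-stranded RNA. Oas1a was at 2.44 and 2.52 FPKM in gMock and 0.249 to 0.487 FPKM with guides, and Oas3 at 1.36 and 1.25 FPKM against 0.145 to 0.245 FPKM. Levels this low hold few reads, and the added constant shrinks their differences to −1.35 and −0.95.

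Of 11 tested interferon-inducible GTPases, 10 fell. They include guanylate-binding proteins and immunity-related GTPases, which act on vacuoles that hold pathogens. Irgm1, a regulator of the second kind, was at 86.3 and 84.7 FPKM in gMock, 17.9 and 29.6 FPKM with gLmna-1, and 25.6 and 24.9 FPKM with gLmna-2 (log2 −1.78, SE 0.19, adjusted p = 0.00417). Gbp3 was at 18.3 and 14.7 FPKM in gMock and 1.71 to 3.63 FPKM with guides. Igtp was at 14.8 and 14.7 FPKM in gMock and 2.44 to 3.72 FPKM with guides. Both groups stood apart for all 3 genes. The exception was Gbp2b, which was seen in 1 mouse only.

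RNA sensors and their regulators fell in 7 of 9 tested genes of the RNA sensing list. Ifih1 (MDA5) was at 9.02 and 7.83 FPKM in gMock and 2.31 to 3.11 FPKM with guides (log2 −1.35, SE 0.15, adjusted p = 0.00417). Ddx58 (RIG-I) was at 30.0 and 29.9 FPKM in gMock and 11.3 to 15.4 FPKM with guides (log2 −1.19, SE 0.18, adjusted p = 0.0134). Zbp1, a sensor of Z-form nucleic acid, was at 23.6 and 25.4 FPKM in gMock and 3.42 to 6.49 FPKM with guides (log2 −2.10, SE 0.29, adjusted p = 0.00865). Mavs, the adaptor on mitochondria that RIG-I and MDA5 share, was at 18.4 and 19.7 FPKM in gMock and 17.4 to 19.9 FPKM with guides (log2 −0.02, SE 0.12, adjusted p = 0.977).

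On the DNA side, Trex1, the exonuclease that clears cytosolic DNA, fell from 13.8 and 12.4 FPKM to between 9.22 and 10.1 FPKM. Samhd1, which lowers the pool of nucleotides, fell from 18.9 and 20.6 FPKM to between 12.5 and 14.7 FPKM. Sting1, the adaptor of cytosolic DNA sensing, was at 17.1 and 25.4 FPKM in gMock and 16.5 to 28.6 FPKM with guides (log2 0.06, adjusted p = 0.89). In the nucleic acid sensing list as a whole, 7 of 12 tested members fell.

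Among smaller families, 5 of 7 tested Ifi200 genes fell, as did 6 of 15 PARP genes with their partners and 5 of 7 genes of the TRIM30 and TRIM12 list. Ifi204, a DNA-binding member of the first family, was at 24.2 and 28.1 FPKM in gMock and 8.44 to 10.1 FPKM with guides. Parp9, Parp10, Parp12 and Parp14 fell, by −1.32, −1.26, −0.97 and −1.29. Parp1 and Parp2, the DNA damage enzymes, had log2 differences of −0.20 and −0.09 and did not pass. Ifitm3, which blocks virus entry, fell from 680 and 764 FPKM to between 398 and 500 FPKM (log2 −0.68, SE 0.09, adjusted p = 0.00619). Ifitm2 was at 184 and 209 FPKM in gMock and 183 to 234 FPKM with guides.

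Genes of antigen presentation fell too. Of 19 tested genes of the class I pathway 13 fell. B2m, the light chain of class I molecules, was at 1526 and 1377 FPKM in gMock, 578 and 564 FPKM with gLmna-1, and 1014 and 888 FPKM with gLmna-2. The 3 treatments did not overlap, and the log2 difference of both guides from gMock was −0.98 (SE 0.13, adjusted p = 0.00865 by limma). H2-K1, a heavy chain, was at 151 and 125 FPKM in gMock, 63.4 and 57.0 FPKM with gLmna-1, and 102 and 85.9 FPKM with gLmna-2 (log2 −0.86, SE 0.08, adjusted p = 0.00344). H2-Q4, a non-classical heavy chain, was at 14.1 and 10.9 FPKM in gMock, 1.70 and 1.68 FPKM with gLmna-1, and 5.51 and 4.07 FPKM with gLmna-2. Class I heavy chain genes are close in sequence, so reads can be split between them.

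The supply line of peptides fell as well. Psmb8, a catalytic subunit of the immunoproteasome, was at 23.6 and 22.3 FPKM in gMock and 6.36 to 11.9 FPKM with guides (log2 −1.28, SE 0.17, adjusted p = 0.00638). The peptide transporter genes Tap1 and Tap2 had log2 differences of −0.78 and −0.46 and passed. So did Nlrc5, the transactivator of class I genes, at 2.85 and 2.66 FPKM in gMock and 1.09 to 1.43 FPKM with guides. Of the class II genes only 3 were tested and 0 passed, and H2-DMa among them was at 9.41 and 8.34 FPKM in gMock and 9.90 to 14.3 FPKM with guides (log2 0.37, SE 0.10, adjusted p = 0.306).

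**Figure D3:**
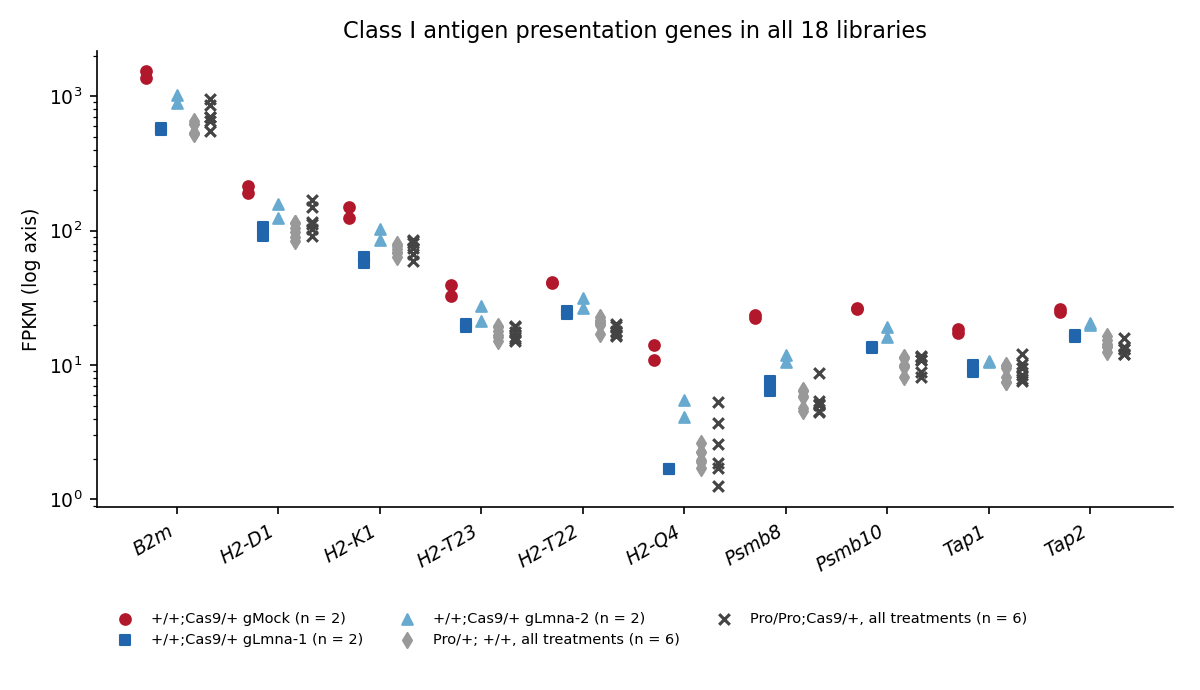
FPKM on a log axis of 10 class I antigen presentation genes in all 18 libraries, 1 symbol per library. The gMock libraries of +/+;Cas9/+ cells are highest, gLmna-1 libraries are lowest of the 3 treatments for B2m, H2-D1, H2-K1 and H2-Q4, and gLmna-2 libraries lie between (B2m, 1526 and 1377, 578 and 564, and 1014 and 888 FPKM).

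Other genes that fell lay outside these lists. Of the 104, 75 belonged to the interferon response, nucleic acid sensing or related lists, and 29 to none. Several of the 29 are known as interferon-inducible as well, such as Apol9a, Apol9b, Cmpk2, Samd9l, Slfn8 and Cd274, the checkpoint ligand PD-L1. Cd274 was at 4.33 and 2.39 FPKM in gMock and 0.740 to 1.28 FPKM with guides (log2 −1.09, SE 0.18, adjusted p = 0.0232). Cfb, complement factor B, was at 7.11 and 7.30 FPKM in gMock, 2.79 and 2.49 FPKM with gLmna-1, and 4.01 and 3.77 FPKM with gLmna-2 (log2 −0.96, SE 0.08, adjusted p = 0.00313). Lgals3bp, a secreted galectin ligand, fell from 370 and 357 FPKM to between 143 and 234 FPKM.

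Some of the 29 are not usually counted with that program. Igf2, a growth factor, was at 3.12 and 3.01 FPKM in gMock and 0.442 to 1.52 FPKM with guides (log2 −1.04, SE 0.11, adjusted p = 0.00417). Agrn, a matrix proteoglycan, fell from 20.3 and 18.2 FPKM to between 6.08 and 15.2 FPKM. Penk, the enkephalin precursor, fell from 45.1 and 59.3 FPKM to between 25.7 and 35.3 FPKM, while Pro/Pro;Cas9/+ libraries held 79.3 to 317 FPKM. These genes were picked out after their values had been seen. Tor1aip1, an inner nuclear membrane protein that binds lamins, was the 1 member of the lamina and nuclear envelope list (21 tested) that passed. It was at 42.6 and 39.9 FPKM in gMock and 24 to 28.6 FPKM with guides (log2 −0.62, SE 0.10, adjusted p = 0.0245), and the other genotypes held 21.0 to 29.1 FPKM.

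The 3 genes that rose were Spon1, Tmem234 and Snord95. Most of these rises did not pass, whichever +/+;Cas9/+ library was left out. Spon1, a secreted matrix protein, was at 6.17 and 4.36 FPKM in gMock and 7.66 to 11.5 FPKM with guides (log2 0.73, SE 0.13, adjusted p = 0.0307). Tmem234, a membrane protein, was at 38.0 and 43.3 FPKM in gMock and 51.5 to 55.3 FPKM with guides (log2 0.40, SE 0.07, adjusted p = 0.0463). In the libraries of the other genotypes it was at 44.4 to 57.2 FPKM. Snord95, a small nucleolar RNA, was at 0.666 and 0.460 FPKM in gMock and 2.54 to 4.11 FPKM with guides, and its short length makes these values coarse. The next genes by p did not pass. Wnt5a, a signalling ligand, was at 19.0 and 32.3 FPKM in gMock, 22.9 and 48.7 FPKM with gLmna-1, and 24.2 and 57.4 FPKM with gLmna-2 (log2 0.49, SE 0.10, adjusted p = 0.0842). Gstk1, Nsdhl, C1qtnf2, Lgi2, Fah, Lrrc27 and Ctsh had adjusted p-values from 0.0928 to 0.152.

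**Figure D4:**
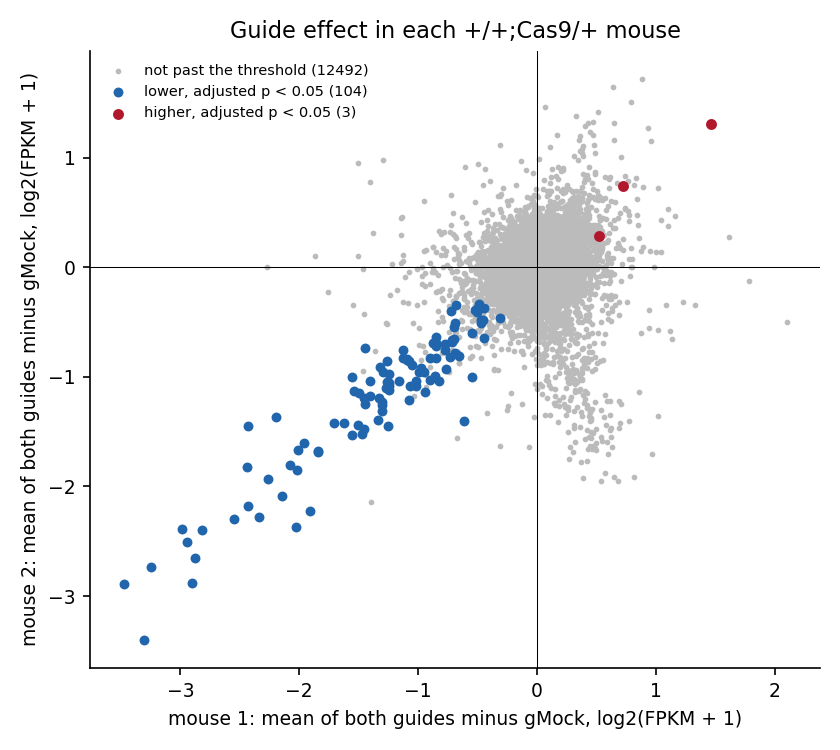
Mean log2(FPKM + 1) of both guides minus gMock in mouse 1 (horizontal) against mouse 2 (vertical), 1 point per tested gene. The 104 genes that fell lie in the lower left in both mice, the 3 that rose in the upper right, and a tail of grey points at the lower right holds genes that were higher with guides in mouse 1 and lower in mouse 2.

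The 104 genes that fell were lower with both guides in both mice. Across all 12599 tested genes, the guide effect in mouse 1 and mouse 2 had a Pearson r of 0.292, and across the 12492 that did not pass it was 0.092. Genes are not independent replicates, and both numbers are descriptions.

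Each guide was also tested alone. With gLmna-1, 84 genes fell (0.667% of those tested) and 3 rose, and with gLmna-2, 68 fell (0.54%) and 3 rose. Both sets of differences use the same 2 gMock libraries. Of the 107 genes that passed with both guides, 82 passed with gLmna-1 alone and 68 with gLmna-2 alone. With gLmna-1, Isg15, Usp18, Ifi44, Oasl2 and Cxcl10 fell most under the naming rule, by −3.33, −3.02, −2.94, −2.80 and −2.68. With gLmna-2 the largest falls were −3.38 for Isg15, −3.36 for Ifit1, −2.97 for Ifit3b, −2.97 for Usp18 and −2.84 for Ifi44. For gLmna-1, 0 genes passed without either gMock library or the gLmna-1 library of mouse 1, and 45 without that of mouse 2. For gLmna-2 the calls were likewise lost or changed when a gMock or gLmna-2 library was left out. Most genes called for it without the gMock library of mouse 1 were not among those called with all libraries. The 6 libraries alone gave 21 genes for gLmna-1 and 0 for gLmna-2.

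Genes that rose with 1 guide differed between guides in their values. Bmp4, a growth factor of the BMP family, was at 13.9 and 27.7 FPKM in gMock, 28.2 and 54.3 FPKM with gLmna-1, and 13.3 and 19.3 FPKM with gLmna-2. It rose with gLmna-1 (log2 0.96, adjusted p = 0.0484), as did Pde9a (0.68, adjusted p = 0.0484). Ctla2a, a protease inhibitor, was at 2.2 and 1.09 FPKM in gMock, 2.00 and 2.12 FPKM with gLmna-1, and 4.56 and 4.45 FPKM with gLmna-2, where it rose (log2 1.09, adjusted p = 0.0421). Lrrc27 also rose with gLmna-2 (0.83, adjusted p = 0.0236). Mmp13, a collagenase, was at 78.7 and 79.2 FPKM in gMock, 33.2 and 36.2 FPKM with gLmna-1, where it fell (log2 −1.16, adjusted p = 0.0246), and 75.2 and 87.6 FPKM with gLmna-2.

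The difference between the guides was tested directly and 0 genes passed in limma (0% of those tested, smallest adjusted p = 0.175), with 1009 genes at unadjusted p under 0.05 and 0 by limma voom on recovered reads. The genes named for it are therefore values. Mmp13 was higher with gLmna-2 by 1.20, Gldn by 1.29 and H2-K1 by 0.63 on the log2 scale (adjusted p = 0.175 each), and Bmp4 was lower by −1.24 (adjusted p = 0.175). B2m was higher with gLmna-2 than with gLmna-1 by 0.73 (SE 0.15, adjusted p = 0.328) and H2-Q4 by 1.10 (SE 0.22, adjusted p = 0.328). Of the 104 genes that fell, 66 fell further with gLmna-1. Within mouse 1 the count was 90, and within mouse 2 it was 39, so the order of the guides was not the same in both mice.

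Effects in this genotype were compared with those in the others by testing the difference of the guide effects. Against Pro/+; +/+ cells, which lack Cas9, 37 genes fell further in +/+;Cas9/+ cells (0.294%), and 0 rose further. These 37 are all among the 107 genes that passed in the +/+;Cas9/+ comparison. Isg15 had a difference of −3.75 (SE 0.54, adjusted p = 0.0439), with −3.35 in +/+;Cas9/+ cells and 0.40 in Pro/+; +/+ cells. In Pro/+; +/+ cells themselves 0 genes passed in limma (0%), with 397 at unadjusted p under 0.05. Genotype at Lmna and Cas9 differ together here, and their parts cannot be told apart. The count of 37 was 10 without the mouse as a block, 1 by limma voom and 0 with a pseudocount of 0.1, with a filter of 5 FPKM or without any 1 of 5 libraries (all but the gLmna-1 library of mouse 2), and the smallest adjusted p was 0.0416.

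Against Pro/Pro;Cas9/+ cells, which have Cas9, 6 genes differed (0.0476%): Cfb, Herc6, Ifitm3, H2-K1, Adam33 and Gm4951. Adam33, a membrane protease of fibroblasts, had no change in +/+;Cas9/+ cells that passed, with 20.3 and 21.9 FPKM in gMock and 23.7 to 26.2 FPKM with guides. In Pro/Pro;Cas9/+ cells it was at 3.24 and 1.11 FPKM in gMock and 3.40 to 8.13 FPKM with guides (log2 1.10, SE 0.07, adjusted p = 0.00106). Herc6 was at 1.83 and 2.16 FPKM in gMock of those cells and 1.40 to 2.07 FPKM with guides, against 6.68 and 7.01 FPKM in +/+;Cas9/+ gMock. Isg15 had a difference of −2.30 that did not pass (SE 0.54, adjusted p = 0.322). The count of 6 was 3 without the block, 1 with median-of-ratios scaling, 0 with the libraries of these 2 genotypes alone and 0 without any 1 of the 6 +/+;Cas9/+ libraries.

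**Figure D5:**
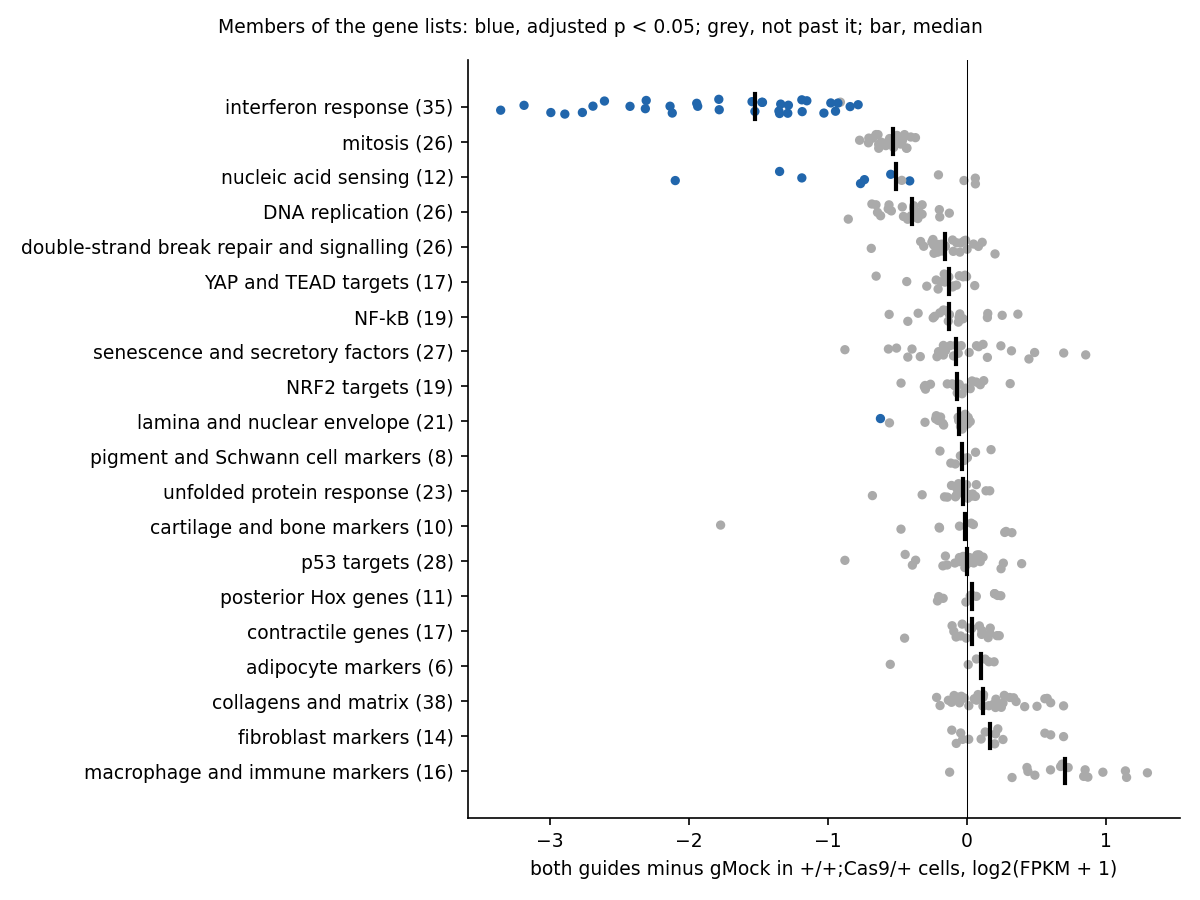
Log2 differences of both guides from gMock in +/+;Cas9/+ cells for the tested members of 20 gene lists, 1 point per gene, blue where the adjusted p was under 0.05, with the number tested in brackets and a bar at the median. The interferon response list (median −1.52) lies to the left of the others, and the macrophage list (median 0.71, no member past the threshold) to the right.

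In the remaining lists 0 members passed. All 26 tested mitosis genes had negative differences (median −0.53, 0 passed), but their levels parted by mouse. Mki67, a marker of cycling cells, was at 1.09 FPKM in gMock, 3.61 FPKM with gLmna-1 and 0.697 FPKM with gLmna-2 in mouse 1. In mouse 2 it was at 6.56, 1.48 and 0.985 FPKM. The mitosis list summed to 63.9, 195 and 47.4 FPKM in mouse 1 and to 315, 97.0 and 73.7 FPKM in mouse 2, in the order gMock, gLmna-1 and gLmna-2. All 26 DNA replication genes were also negative in the mean (median −0.39, 0 passed), with Mcm6, a helicase subunit, at −0.85 (adjusted p = 0.595).

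Macrophage and immune markers had the opposite sign, with 15 of 16 tested members positive and a median of 0.71, and 0 passed. Lyz2, lysozyme of macrophages, was at 192 FPKM in gMock, 343 FPKM with gLmna-1 and 324 FPKM with gLmna-2 in mouse 1, and at 48.9, 121 and 165 FPKM in mouse 2 (log2 1.15, SE 0.39, adjusted p = 0.517). The summed list was at 302 and 84.5 FPKM in gMock and between 202 and 500 FPKM with guides, so within each mouse the gMock library was lowest. Cd3e, a T cell gene that is also in this list, was listed at 0 in all 6 libraries. In the mean of both guides the list was also positive in the other genotypes, with 16 of 16 members in Pro/+; +/+ cells (median 0.56) and 16 of 16 in Pro/Pro;Cas9/+ cells (median 0.34). The interferon response list had medians of 0.07 and −0.35 there. Within 1 mouse of each of these genotypes, however, the summed macrophage list was lower with gLmna-1 than with gMock. For gMock, gLmna-1 and gLmna-2 it was at 419, 391 and 734 FPKM in that Pro/+; +/+ mouse. In that Pro/Pro;Cas9/+ mouse it was at 740, 573 and 1882 FPKM. The part of these markers in the result was not tested.

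The p53 target list (28 tested) had 14 genes on each side and a median of 0.00. Cdkn1a, the p21 inhibitor of the cell cycle, was at 344 and 294 FPKM in gMock and 310 to 380 FPKM with guides (log2 0.12, adjusted p = 0.85). Mdm2 was at 99.5 and 90.3 FPKM in gMock and 81.2 to 108 FPKM with guides. Of the list for double-strand break repair 21 of 26 tested genes were negative (median −0.15). Of NF-kB subunits and targets 15 of 19 were (median −0.12), beside 56.6% negative and a median of −0.02 over all tested genes. For NF-kB, 16 were negative with gLmna-1 (median −0.27) but 5 with gLmna-2 (median 0.06). The mean log2(FPKM + 1) of the 29 repair genes was 2.18, 2.36 and 2.11 in mouse 1, for gMock, gLmna-1 and gLmna-2. In mouse 2 it was 2.55, 2.21 and 2.21. NRF2 targets had a median of −0.07 and the unfolded protein response of −0.03.

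Matrix and contractile genes were also without a call. Of 38 tested collagen and matrix genes, 29 were positive (median 0.12). Mfap5, a microfibril protein, was at 244 and 179 FPKM in gMock and 240 to 355 FPKM with guides (log2 0.42, adjusted p = 0.288). Lum, a collagen-binding proteoglycan, was at 55.0 and 56.9 FPKM in gMock and 73.9 to 115 FPKM with guides (log2 0.70, adjusted p = 0.671). Contractile genes had a median of 0.04 and YAP and TEAD targets of −0.13. Of 27 tested senescence and secretory factors, 16 were negative (median −0.08). With gLmna-1 18 were negative (median −0.21), but with gLmna-2 6 were (median 0.20). Cdkn2a of this list was at 175 and 162 FPKM in gMock and 192 to 208 FPKM with guides (log2 0.25, SE 0.07, adjusted p = 0.413). Both gMock libraries lay below all 4 guide libraries for Cdkn2a, as for 2 of the 27 members and 5.5% of all tested genes. Among cartilage markers, Col2a1 was at 9.41 and 58.2 FPKM in gMock and 2.18 to 12.4 FPKM with guides (log2 −1.77, SE 0.47, adjusted p = 0.296).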

How the data were processed

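RNA-seq of 18 libraries was used, of which 6 are +/+;Cas9/+. The submitters' processing notes name STAR 2.4.0k, FastQC 0.11.2 and HOMER, and the build mm10. The FPKM values were made by the authors per exon part of each transcript, per the file headers. The deposited table also holds part lengths in bases, another unit, per the file headers. The strand setting is not given in the sources used here, so overlapping and antisense genes may share reads. Of 24 library columns, 6 match no labelled sample and were not used. Its rows are transcript parts and not genes as the design had assumed. The 404759 parts were combined by length into 36795 transcripts, named from RefSeq (36469) or GENCODE (199), with 127 unnamed, and the transcript with the highest mean FPKM stood for each of 24445 symbols. Reads per library were recovered because all values tested (100%) were whole numbers of reads to within 0.05. Single reads and pairs could not be told apart.

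Genes reaching 1 FPKM in 2 or more libraries were tested on log2(FPKM + 1) with limma 3.58.1 (trended eBayes) in R 4.3.3, all 18 libraries in 1 fit with mouse as a block (6 residual degrees of freedom) and Benjamini-Hochberg adjustment. The mouse is named in the titles, and libraries of the same mouse correlated after group means were removed, at 0.176 to 0.59 in +/+;Cas9/+ cells, 0.472 to 0.734 in Pro/+; +/+ and −0.0193 to 0.778 in Pro/Pro;Cas9/+. The code was tested on simulated data. Figures were drawn with matplotlib 3.10.9 and tables made with pandas 2.3.3 and numpy 2.4.6 in Python 3.11.15. The members and gene lists were chosen with earlier results of these data known. Named genes are Lmna, of the genes that passed up to 10 per direction by size of change (a mean of at least 2 FPKM, the same sign in all 4 within-mouse differences, no sex-linked genes or gene models), filled by smallest p where fewer than 5 passed, up to 5 for each further comparison, and up to 4 per list by smallest p. Some genes of these lists are not reported here. The families of the interferon pathway and genes named from them were chosen after values were seen. Alternatives covered the block, libraries in the fit, pseudocount, filter, scaling, transcript choice, limma voom on recovered reads and leaving out each library.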

Additional observations from a re-analysis of the deposited data

Results flagged for a closer look

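The guide effect differed between genotypes by a test of the difference itself. It passed for 37 genes between +/+;Cas9/+ cells and Pro/+; +/+ cells without Cas9. The named genes were Isg15 (−3.75 on the log2 scale, adjusted p = 0.0439 by limma), Oasl2 (−3.06), Ifit3b (−3.05), Ifi44 (−3.0) and Cxcl10 (−2.93), all with a larger fall in +/+;Cas9/+ cells. Against Pro/Pro;Cas9/+ cells it passed for 6 genes. Cfb differed by −1.27, Herc6 by −1.14, Ifitm3 by −1.0, H2-K1 by −0.96 and Adam33 by −0.86. For the first 4 a fall passed in +/+;Cas9/+ cells, and for Adam33 a rise passed in Pro/Pro;Cas9/+ cells. For Cfb, Ifitm3 and H2-K1 that fall was smaller than the difference, so part of the difference lay in Pro/Pro;Cas9/+ cells, with the opposite sign.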

How the results depend on the processing

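With 107 genes called for both guides, 67 passed with the 6 libraries of this genotype alone, and 0 to 84 without 1 library. For gLmna-1 (87) these were 21, and 0 to 66, and for gLmna-2 (71) they were 0, and 0 to 131. A lone library left in an arm is assumed to vary like the other groups. For gLmna-2, 33 passed with a pseudocount of 0.1 and 27 with no filter. The difference from Pro/+; +/+ cells (37) gave 66 with only the genotypes compared, 0 with a pseudocount of 0.1, 6 with no filter, 0 with at least 5 FPKM, 8 with median-of-ratios scaling, 1 with limma voom and 0 to 38 without 1 library. That from Pro/Pro;Cas9/+ cells (6) gave 0 with only the genotypes compared, 1 with median-of-ratios scaling and 0 without any 1 of the 6 libraries. The genes called changed as well. Of the 67 genes with the 6 libraries alone, 57 were among the 107, and of the 66 genes 35 were among the 37. Most genes called for gLmna-2 without the gMock library of mouse 1 were not among its 71. The cause of these changes was not tested. Without the mouse as a block (no pairing), the counts were 78 for both guides, 60 for gLmna-1, 43 for gLmna-2, 10 against Pro/+; +/+ cells and 3 against Pro/Pro;Cas9/+ cells. No named gene reversed its sign past the threshold under any setting. Of the 3 genes that rose, Tmem234 did not pass under 5 settings other than leaving out a library and Spon1 under 3. Most of the 3 rises also did not pass, whichever +/+;Cas9/+ library was left out.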

Other observations

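A pair of interferon-inducible genes were present in 1 mouse and near 0 in the other. Gbp2b, a guanylate-binding protein, was at 10.3 FPKM in gMock, 2.64 with gLmna-1 and 3.63 with gLmna-2 in mouse 1, and at 0.0111, 0 and 0 FPKM in mouse 2. In the 12 libraries of the other genotypes it did not exceed 0.0256 FPKM. Ifi202b, a DNA-binding member of the Ifi200 family, was at 41, 16.1 and 18.1 FPKM in mouse 1 and at 0, 0.0170 and 0.0238 FPKM in mouse 2. It was at 12.3 to 16.8 FPKM in the 6 libraries of Pro/+; +/+ mice, at 11.6 to 30.6 FPKM in 1 Pro/Pro;Cas9/+ mouse and listed at 0 in the 3 libraries of the other. These genes were chosen after their values were seen.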
